A study of Mus musculus with 16 samples.

Results

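Transfer RNAs (tRNAs) for alanine and cysteine were described in small RNA sequenced from prefrontal cortex of PS19 and wild-type (WT) mice. Members were chosen by name, as the rows whose feature name contains tRNA-Ala- or tRNA-Cys-. There were 98 such rows, 37 for alanine and 61 for cysteine, among 448 tRNA rows and 18488 rows in all. Because 35 of the 98 rows held the same 16 values as at least one other, identical rows were counted once, which left 77 distinct rows, 32 for alanine and 45 for cysteine.

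The 8 PS19 mice were PS19+/-, that is heterozygous for a human MAPT transgene with the P301S mutation under the mouse Prnp promoter, on a mixed C57BL/6 and C3H background. The 8 WT mice were littermates without the transgene. All mice were about 9.6 months old, each group held equal numbers of males and females, and the sex of each library was not given. This promoter drives the transgene broadly in the brain, chiefly in neurons, and PS19 is a model of tau pathology without amyloid.

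A tRNA carries 1 amino acid to the ribosome and reads the codon of an mRNA through its anticodon, the 3 bases that name each row here. Alanine is served by the anticodons AGC, CGC and TGC, and cysteine by GCA. Genes that share an anticodon often differ by few bases, so that a short read can match several of them. Enzymes such as angiogenin cut tRNAs in the anticodon loop under stress, and small RNA libraries often hold such fragments together with some full-length molecules. The 5′ fragments of alanine and cysteine tRNAs begin with a run of guanines, and are known in other cells for inhibiting translation. Fragments and full-length tRNA were not separated in these values, and in bulk cortex fewer cells of a type and less RNA per cell cannot be told apart.

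The values were normalized counts, that is reads divided by 1 size factor per library. Summed over all rows, with identical rows each counted, the libraries held 13.2 M to 23.1 M recovered reads. On the same basis tRNA rows took 25.3% to 52.5% of the signal. A read that was assigned to several rows would be counted repeatedly in both. The 4 neuronal miRNA markers were detected in every library, with a summed normalized count of 294700 to 1026000 in PS19 mice and of 341500 to 953100 in WT, while the 3 microglial and leucocyte miRNAs summed to 2.83 to 15.7 over all 16 libraries. None of the 7 marker lists, which also covered oligodendrocytes, red blood cells, choroid plexus, muscle and liver, differed between genotypes (two-sided exact permutation test, unadjusted p of 0.191 to 0.940). The library codes in the labels began with G for all 8 PS19 libraries but for only 2 of the 8 WT libraries. The meaning of the letter was not given, and outside the G libraries genotype and letter cannot be told apart.

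In the mouse genome, the RefSeq annotation of GRCm38.p6, the assembly that mm10 in the labels also denotes, placed 56 genes for tRNA-Cys-GCA, of which 48 lay on chromosome 6 between 47978997 and 48363603, a span of 0.385 Mb. Of the remaining genes, 5 were on chromosome 11, 2 on chromosome 9 and 1 on chromosome 17. The 13 genes for Ala-AGC were found mainly on chromosome 13, with 9 genes between 21222586 and 23431484. The X chromosome held 5 of the 9 Ala-CGC genes, between 136367721 and 136567936, and 7 of the 11 Ala-TGC genes, between 136357602 and 136590436. These genes were 70 to 73 bases long. RefSeq names could not be paired with the row names, so no single row is given a position.

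Many rows carried the same signal. Rows were called near-identical when their log2 values correlated at r of at least 0.99 and their means lay within 2-fold. By this rule the 77 distinct rows formed 34 sets, of which 10 sets of at least 2 rows held 53 rows. The largest was a cysteine set of 17 distinct rows, made of 32 rows in all, around tRNA-Cys-GCA-4-29, with means of 91.7 to 109. A second cysteine set joined 6 distinct rows of Cys-GCA-1, Cys-GCA-2 and Cys-GCA-3, with means of 711.5 to 733.

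The largest alanine set crossed anticodons. It joined 9 distinct rows with all 3 alanine anticodons, AGC, CGC and TGC, and its means were 259 to 282. Within a library its rows differed by 1.06- to 1.17-fold. Values of these rows therefore cannot be assigned to 1 anticodon. The circRNA rows mmu_circ_0003413 and mmu_circ_0003415, which had mean normalized counts of 282.0 and 276, followed the same set, with r of 0.988 to 0.995 and of 0.992 to 0.998 to its 9 rows over the 16 libraries. How reads that match several features were counted was not stated.

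Levels differed widely among members. Compared per row and not per length, which hardly differs among tRNAs, the highest mean over the 16 libraries was that of tRNA-Ala-CGC-5-1, at 1542, followed by tRNA-Ala-TGC-2-1 at 1087. Among cysteine rows, tRNA-Cys-GCA-1-2 had the highest mean, at 733, and tRNA-Cys-GCA-5-1, which stood in no set, had 293. The mean normalized count of tested rows ran from 8.48 to 1542 for alanine and from 21.7 to 733 for cysteine. A group of 8 distinct rows had means of 0.332 to 2.66 and at most 10 reads in a library, and was not tested. These were Ala-AGC-11-1, Ala-AGC-19-1, Ala-CGC-3-1, Ala-CGC-6-1, Ala-CGC-7-1, Cys-GCA-27-1, Cys-GCA-28-1 and Cys-ACA-1-1, the only row with the anticodon ACA.

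As shares of the summed signal of all distinct tRNA rows, alanine took 0.111% ± 0.0186 (SD, n = 8) in PS19 mice and 0.107% ± 0.0274 in WT, and cysteine 0.120% ± 0.0344 and 0.135% ± 0.0298. Neither share differed between genotypes beyond the spread between libraries (two-sided exact permutation test, p = 0.750 for alanine and 0.374 for cysteine, and 0.750 and 0.748 after adjustment over both). Among 23 amino acid classes cysteine ranked 11th and alanine 12th by mean share, far under glycine with 55.2% and glutamate with 39.6%. Near-identical rows repeat one another in these shares. With each near-identical set counted once, the mean summed count was 1475 in place of 7074 for cysteine. For alanine it was 3503 in place of 5853, which is above cysteine, so the ranks hold for distinct rows only.

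Alanine and cysteine tRNA rows did not pass the test for a genotype difference. Of the 69 distinct rows with a mean of at least 5, none of the 27 alanine and none of the 42 cysteine rows had an unadjusted p under 0.05 in limma, where 241 of all 6024 features tested did (4.0%). After Benjamini-Hochberg adjustment over all features, 0 of the 69 passed in limma (0% of all features) and in edgeR (0%). DESeq2 gave an adjusted p to 68 of the 69 rows and to 3689 features, of which it called 0 rows and 15 features (0.407%). At an unadjusted p under 0.05, edgeR called 0 of the 69 against 4.40% of all features, and DESeq2 0 of the 69 against 4.70%. In limma every one of the 69 rows had an adjusted p of 0.9998. The values of PS19 and WT libraries overlapped in all 77 distinct rows, the 8 untested rows included. Overlap was not counted over the other features.

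The median log2 differences, PS19 minus WT, had opposite signs for alanine and cysteine rows. Among alanine rows 21 were above 0 and 6 below, with a median of 0.09. Among cysteine rows 1 was above 0 and 41 below, with a median of −0.28. Over all 6024 features 2819 were above and 3205 below 0, with a median of −0.02, and over the 280 tested rows of other tRNAs 189 were above and 91 below, with a median of 0.09. Some other amino acids also lay on a single side of 0, with leucine 23 above and 0 below, serine 20 and 0, and methionine 0 and 7. Others were mixed, with arginine 11 above and 12 below and glycine 9 and 15. Rows that share signal repeat one another in these counts. With each near-identical set counted once, 10 of 15 alanine sets were above 0 with a median of 0.06, and 10 of 11 cysteine sets were below 0 with a median of −0.18. With the code letter as a term in the model the row medians were −0.05 for alanine and −0.46 for cysteine, and the cysteine median was −0.48 in edgeR and −0.47 in DESeq2.

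**Figure D1:**
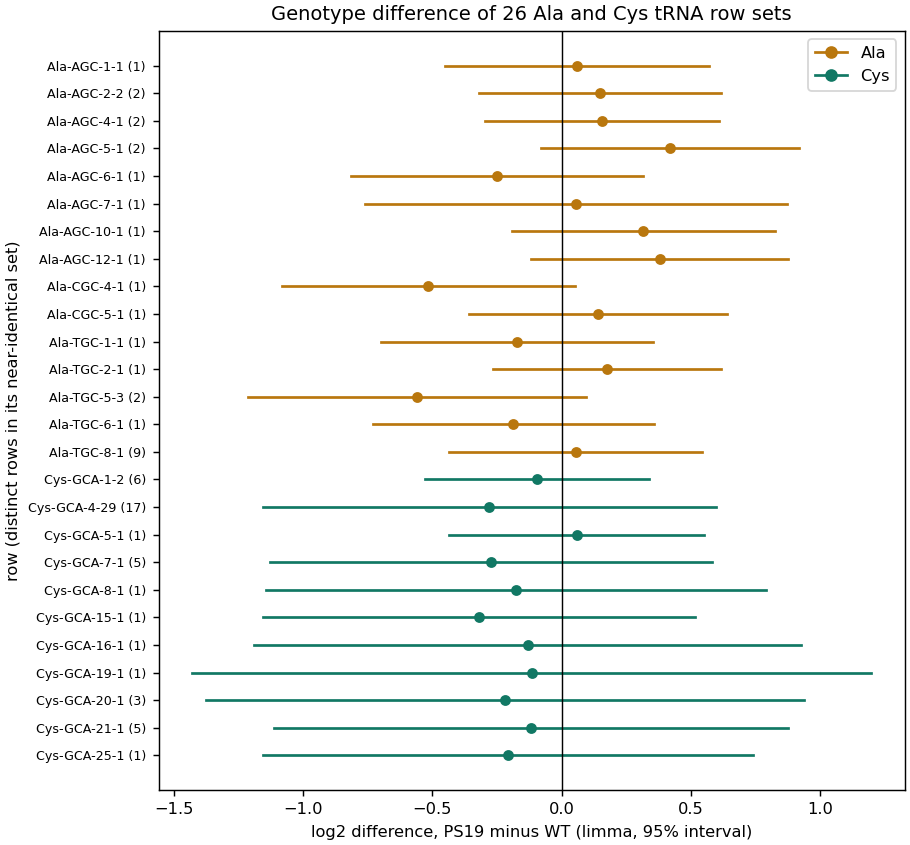
Log2 difference in normalized count, PS19 minus WT, on the horizontal axis for the 26 tested alanine (brown) and cysteine (green) row sets, each shown by its highest row, with the number of distinct rows in the set in brackets. Points are limma estimates from 8 and 8 libraries and lines their 95% intervals, and every line crosses 0.

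The ratio of cysteine to alanine signal within a library does not depend on how the library was scaled. The ratio of summed distinct rows was 0.816 to 1.67 in PS19 mice, with a median of 1.04, and 0.729 to 1.68 in WT, with a median of 1.44. Only 1 of 8 PS19 libraries, replicate 5, lay above the WT median, while WT replicate 8 had the lowest ratio of all. The mean ratio was 1.097 ± 0.294 (SD, n = 8) in PS19 mice compared to 1.32 ± 0.329 in WT. On the log2 scale the difference was −0.26, with a 95% interval of −0.67 to 0.16 (two-sided exact permutation test, p = 0.192). Without WT replicate 8 it was −0.38 with p = 0.0427 by the same permutation test, so this library decided the side of the threshold. Within the libraries coded G, 8 PS19 and 2 WT, the difference was −0.23 (exact permutation test, p = 0.533).

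Summed over distinct rows, none of the 4 anticodon groups differed between genotypes. The Ala-AGC sum was 849 to 1502 in PS19 mice, with a median of 1097, and 689 to 1617 in WT, with a median of 945. Its mean was 1114 ± 254 (SD, n = 8) compared to 1026 ± 292, a log2 difference of 0.13 with a 95% interval of −0.26 to 0.51 (exact permutation test, p = 0.463). Groups overlapped over most of their range.

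The Ala-CGC sum, of which tRNA-Ala-CGC-5-1 made up most, was 2414 ± 565 in PS19 mice and 2304 ± 615 in WT (SD, n = 8), a log2 difference of 0.08 with an interval of −0.32 to 0.47 (exact permutation test, p = 0.679). The Ala-TGC sum was 2485 ± 521 compared to 2363 ± 695, a log2 difference of 0.10 with an interval of −0.30 to 0.49 (exact permutation test, n = 8, p = 0.606). Both were below 0 with the mean of log2 over rows in place of the sum, at −0.021 for Ala-CGC and −0.11 for Ala-TGC, and Ala-TGC was −0.0040 without WT replicate 7. For all alanine rows together the sum was 4453 to 7721 in PS19 mice and 4501 to 8579 in WT. The highest alanine sum came from WT replicate 1.

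The Cys-GCA sum was 4110 to 9880 in PS19 mice, with a median of 6015, and 3293 to 12651 in WT, with a median of 6817. Its mean was 6502 ± 1874 compared to 7646 ± 2966 (SD, n = 8), a log2 difference of −0.18 with an interval of −0.73 to 0.37 (exact permutation test, p = 0.489). Adjusted over the 4 anticodon groups, all 4 permutation p-values were 0.679. Within the libraries coded G the 4 log2 differences were 0.05, 0.04 and 0.03 for Ala-AGC, Ala-CGC and Ala-TGC and −0.22 for Cys-GCA. Rows that repeat one another weigh in all these sums. The cysteine sum averaged 7074 over distinct rows and 1474 when each near-identical set was counted once, the Ala-AGC sum 1070.2 and 607, the Ala-CGC sum 2359 and 1832, and the Ala-TGC sum 2424 and 1603. The set shared by the 3 alanine anticodons supplied on average 49.4% of the Ala-AGC, 34.0% of the Ala-CGC and 44.4% of the Ala-TGC sum, so these 3 sums are not separate measurements.

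**Figure D2:**
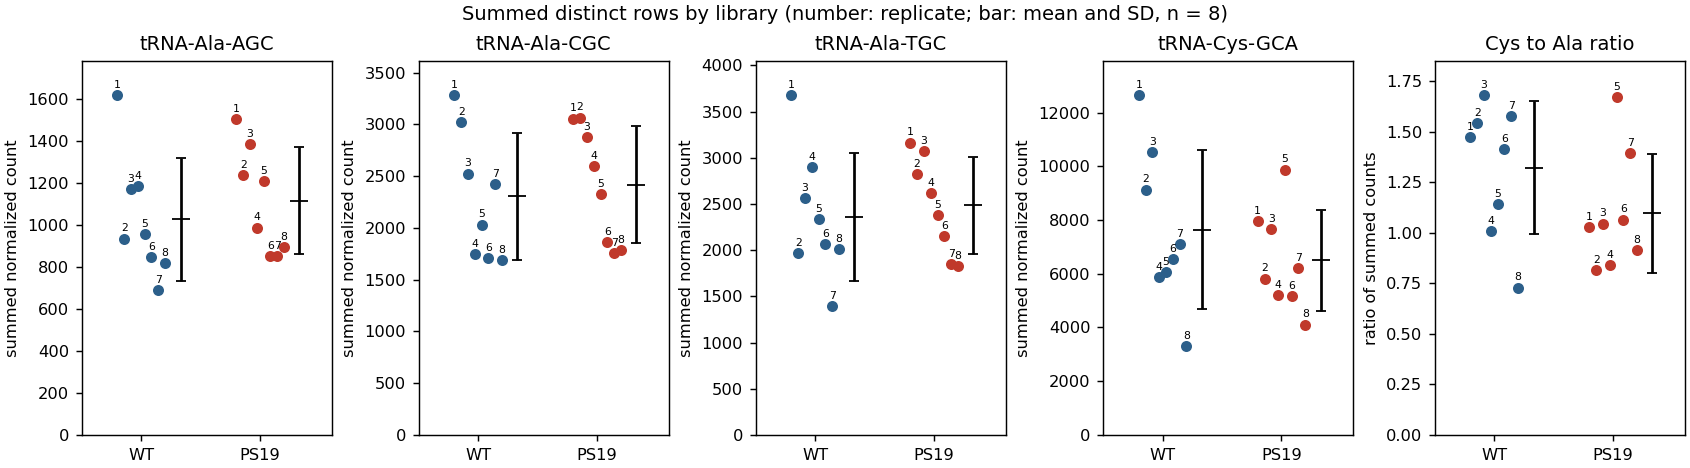
Summed normalized count over the distinct rows of each anticodon (first 4 panels) and the ratio of the cysteine to the alanine sum (last panel), for each WT (blue) and PS19 (red) library, numbered by replicate, with mean and SD of 8 libraries as bars. The genotypes overlap in all 4 sums, and 7 of 8 PS19 ratios lie under the WT median of 1.44.

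The 2 highest alanine rows behaved differently from one another across libraries. In tRNA-Ala-CGC-5-1 the normalized count was 1154 to 1937 in PS19 mice, with a median of 1643, and 706 to 2342 in WT, with a median of 1466. The extremes were both WT libraries, replicate 4 at the bottom and replicate 2 at the top. Its log2 difference was 0.14 ± 0.24 (SE).

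The tRNA-Ala-TGC-2-1 count was 724.8 to 1522 in PS19 mice, with a median of 1099, and 588 to 1645 in WT, with a median of 1026. The lowest was WT replicate 7 and the highest WT replicate 1, and 6 of 8 PS19 libraries exceeded the median of WT. PS19 minus WT was 0.18 ± 0.21 (SE) on the log2 scale. For the shared alanine set, tRNA-Ala-TGC-8-1 had counts of 175 to 406 in PS19 mice, with a median of 272, and of 159 to 451 in WT, with a median of 251. Over the 9 rows of this set the log2 differences were 0.05 to 0.10.

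The ratio of tRNA-Ala-CGC-5-1 to tRNA-Ala-TGC-8-1 within a library was 4.71 to 7.003 in PS19 mice, with a median of 5.37, and 1.91 to 12.3 in WT, with a median of 4.84. Its lowest and highest values came from WT replicates 4 and 7. These alanine rows thus did not keep a fixed proportion between WT libraries.

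In limma the smallest unadjusted p-values all belonged to lowly counted alanine rows, while in DESeq2 the smallest was that of tRNA-Cys-GCA-19-1, at 0.0751. In tRNA-Ala-CGC-4-1 the normalized count was 10.2 to 37.4 in PS19 mice, with a median of 15.2, and 13.3 to 40.1 in WT, with a median of 23.3. Only 1 PS19 library, replicate 5, exceeded the WT median, and the row had 10 to 43 reads in a library. The log2 difference was −0.52 ± 0.27 (SE), with a limma unadjusted p of 0.0721. Without PS19 replicate 5 it was −0.68 with an unadjusted limma p of 0.0142 and an adjusted p of 0.998, and over all alternatives it ran from −0.68 to −0.41 with unadjusted p of 0.0142 to 0.329.

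Rows tRNA-Ala-TGC-5-1 and tRNA-Ala-TGC-5-3 form a near-identical pair. For tRNA-Ala-TGC-5-1 the normalized count was 5.82 to 32.4 in PS19 mice, with a median of 10.8, and 9.51 to 35.2 in WT, with a median of 17.1. As in tRNA-Ala-CGC-4-1, replicate 5 was the highest PS19 library and replicates 4 and 8 were the highest of the WT libraries. Its log2 difference was −0.58 ± 0.31 (SE, limma unadjusted p = 0.0804), and that of tRNA-Ala-TGC-5-3 was −0.56 (limma unadjusted p = 0.0905). Without PS19 replicate 5 their unadjusted limma p-values were 0.0145 and 0.0177, and without WT replicate 2 they were 0.0366 and 0.0416, where tRNA-Ala-CGC-4-1 had 0.0300. Over all alternatives their unadjusted p-values reached 0.272 and 0.288.

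In the other direction, the near-identical pair tRNA-Ala-AGC-5-1 and tRNA-Ala-AGC-5-3 had the smallest p-values. The tRNA-Ala-AGC-5-1 count was 16.1 to 47.7 in PS19 mice, with a median of 32.2, and 14.1 to 35.9 in WT, with a median of 22.9. Of 8 PS19 libraries 7 lay above the WT median, the exception being replicate 6. The log2 differences were 0.42 ± 0.24 and 0.41 ± 0.24 (SE), with limma unadjusted p-values of 0.0943 and 0.0969, which were 0.0239 and 0.0247 without PS19 replicate 6. With the code letter as a term the differences were 0.22 for both, and over all alternatives their unadjusted p-values reached 0.558 and 0.565. In tRNA-Ala-AGC-12-1 the count was 14.9 to 37.6 in PS19 mice and 12.4 to 25.7 in WT, a log2 difference of 0.38 ± 0.24 (SE, limma unadjusted p = 0.129).

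The remaining alanine rows had log2 differences between −0.25 and 0.32. The lowest-mean tested row, tRNA-Ala-AGC-7-1, had 2 to 20 reads in a library and a log2 difference of 0.06 ± 0.39 (SE).

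**Figure D3:**
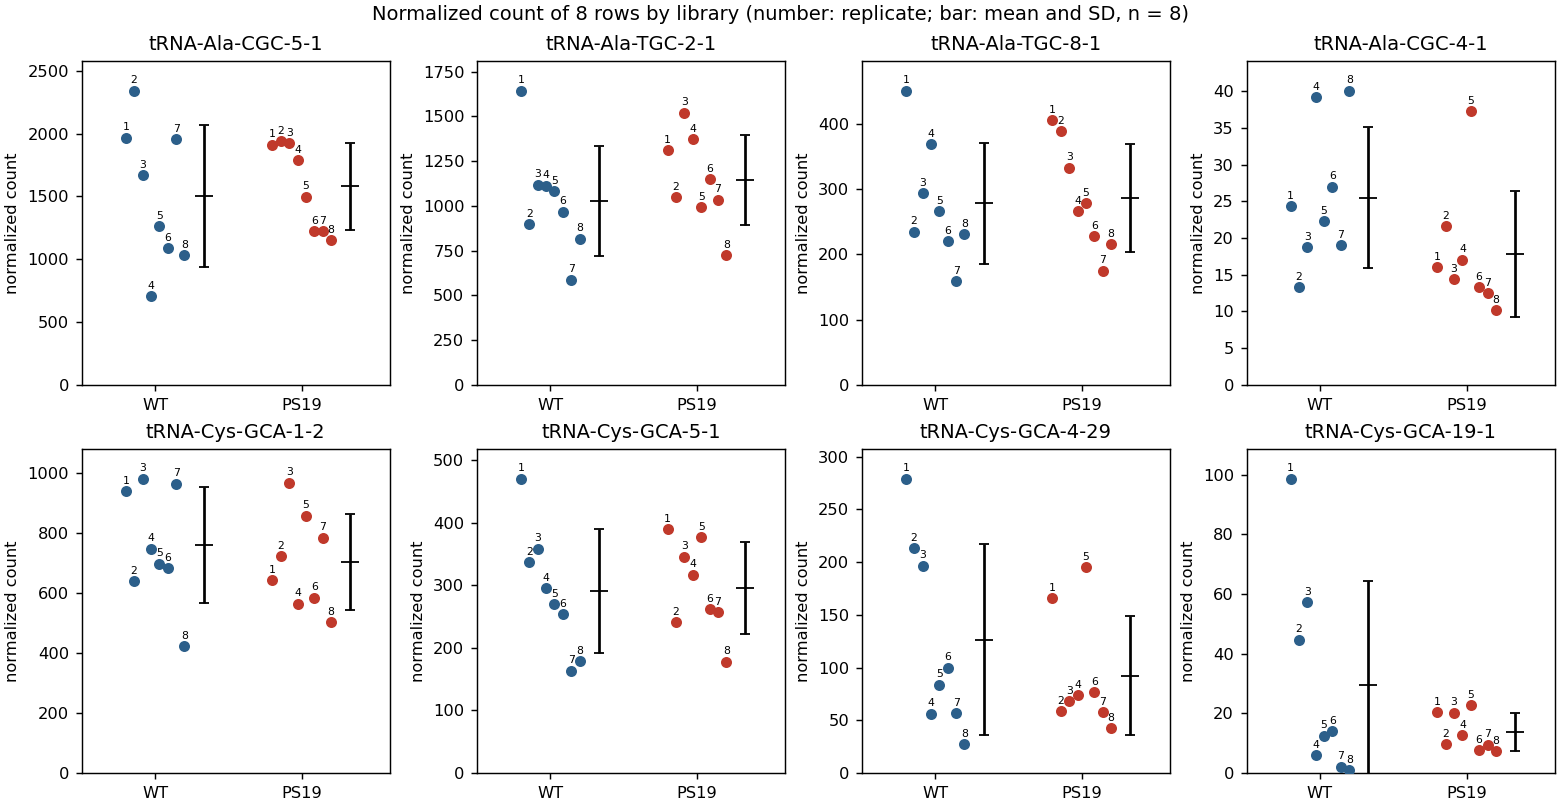
Normalized count of 4 alanine rows (upper panels) and 4 cysteine rows (lower panels) in each WT (blue) and PS19 (red) library, numbered by replicate, with mean and SD of 8 libraries as bars. WT replicates 1, 2 and 3 and PS19 replicates 1 and 5 stand above the other libraries in tRNA-Cys-GCA-4-29, and the same WT libraries in tRNA-Cys-GCA-19-1.

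Cysteine rows fell into abundant rows with a narrow range and less abundant rows with a wide one. In tRNA-Cys-GCA-1-2 the normalized count was 503 to 969 in PS19 mice, with a median of 684, and 423 to 983 in WT, with a median of 724. Its log2 difference was −0.10 ± 0.21 (SE), and the 6 distinct rows of its set had −0.10 to −0.09. With the code letter as a term it was −0.0078 for tRNA-Cys-GCA-1-2. For tRNA-Cys-GCA-2-1, tRNA-Cys-GCA-3-1, tRNA-Cys-GCA-3-3 and tRNA-Cys-GCA-3-4 of the same set it was then 0.020 to 0.025. In tRNA-Cys-GCA-5-1 the count was 178 to 390.1 in PS19 mice and 163 to 470.2 in WT, and the log2 difference was 0.06 ± 0.24 (SE). It was the only cysteine row with a difference above 0 in the main fit, and its difference was −0.13 with the code letter as a term. Neither tRNA-Cys-GCA-1-2 nor tRNA-Cys-GCA-5-1 separated the genotypes.

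The set of 17 distinct rows around tRNA-Cys-GCA-4-29 varied much more. The count of tRNA-Cys-GCA-4-29 was 42.4 to 196 in PS19 mice, with a median of 70.8, and 27.1 to 279 in WT, with a median of 91.9. WT replicates 1, 2 and 3 had 279, 213 and 197, PS19 replicates 5 and 1 had 196 and 166, and the remaining libraries had at most 100.1. High and low libraries thus occurred in both genotypes. The log2 difference was −0.28 ± 0.42 (SE) with a 95% interval of −1.16 to 0.60, and it was −0.32 to −0.28 over the 17 rows. It was −0.46 in edgeR and −0.45 in DESeq2, and −0.54 to −0.07 without 1 library.

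These libraries were the highest in most cysteine rows. WT replicates 1, 2 and 3 and PS19 replicates 1 and 5 were the 5 highest libraries in 34 of the 42 tested cysteine rows, while no alanine row had these 5 at the top. WT replicate 8 was the lowest library in 33 of the 42 cysteine rows and WT replicate 7 in the other 9. The lowest library of alanine rows was WT replicate 7 in 13 of 27. With each near-identical set counted once, the same 5 libraries led in 8 of 11 cysteine sets, WT replicate 8 was lowest in 6 and WT replicate 7 in 5 of the 11, and WT replicate 7 was lowest in 4 of 15 alanine sets.

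The widest range was that of tRNA-Cys-GCA-19-1. Its normalized count was 7.31 to 22.6 in PS19 mice, with a median of 11.3, and 0.933 to 98.7 in WT, with a median of 13.2. WT replicates 1, 3 and 2 had 98.7, 57.3 and 44.7, above every PS19 library, and WT replicates 8, 7 and 4 had 0.933, 2.12 and 6.03, below every PS19 library. The 0.933 was a single read. Because the WT libraries lay on both sides, the mean of log2 values differed by −0.12 ± 0.63 (SE, limma unadjusted p = 0.855), whereas edgeR and DESeq2, which compare mean counts, gave −1.08 and −1.097 with unadjusted p-values of 0.0929 and 0.0751. Without WT replicate 1, 2 or 3 in turn the limma difference was 0.28, 0.12 or 0.17.

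Rows tRNA-Cys-GCA-20-1 and tRNA-Cys-GCA-8-1 showed the same arrangement. In tRNA-Cys-GCA-20-1 the count was 10.4 to 43.7 in PS19 mice and 3.73 to 149 in WT, and in tRNA-Cys-GCA-8-1 10.4 to 36.4 and 8.40 to 119. The highest counts of both were in WT replicate 1. It did not hold for all low cysteine rows: in tRNA-Cys-GCA-13-1, tRNA-Cys-GCA-18-1 and tRNA-Cys-GCA-21-1 the highest library was PS19 replicate 1, at 61.1, 65.5 and 72.8. Across tested rows the highest library exceeded the lowest by a median of 2.86-fold for alanine (range 2.36 to 7.11) and by a median of 11.3-fold for cysteine (range 2.32 to 106).

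**Figure D4:**
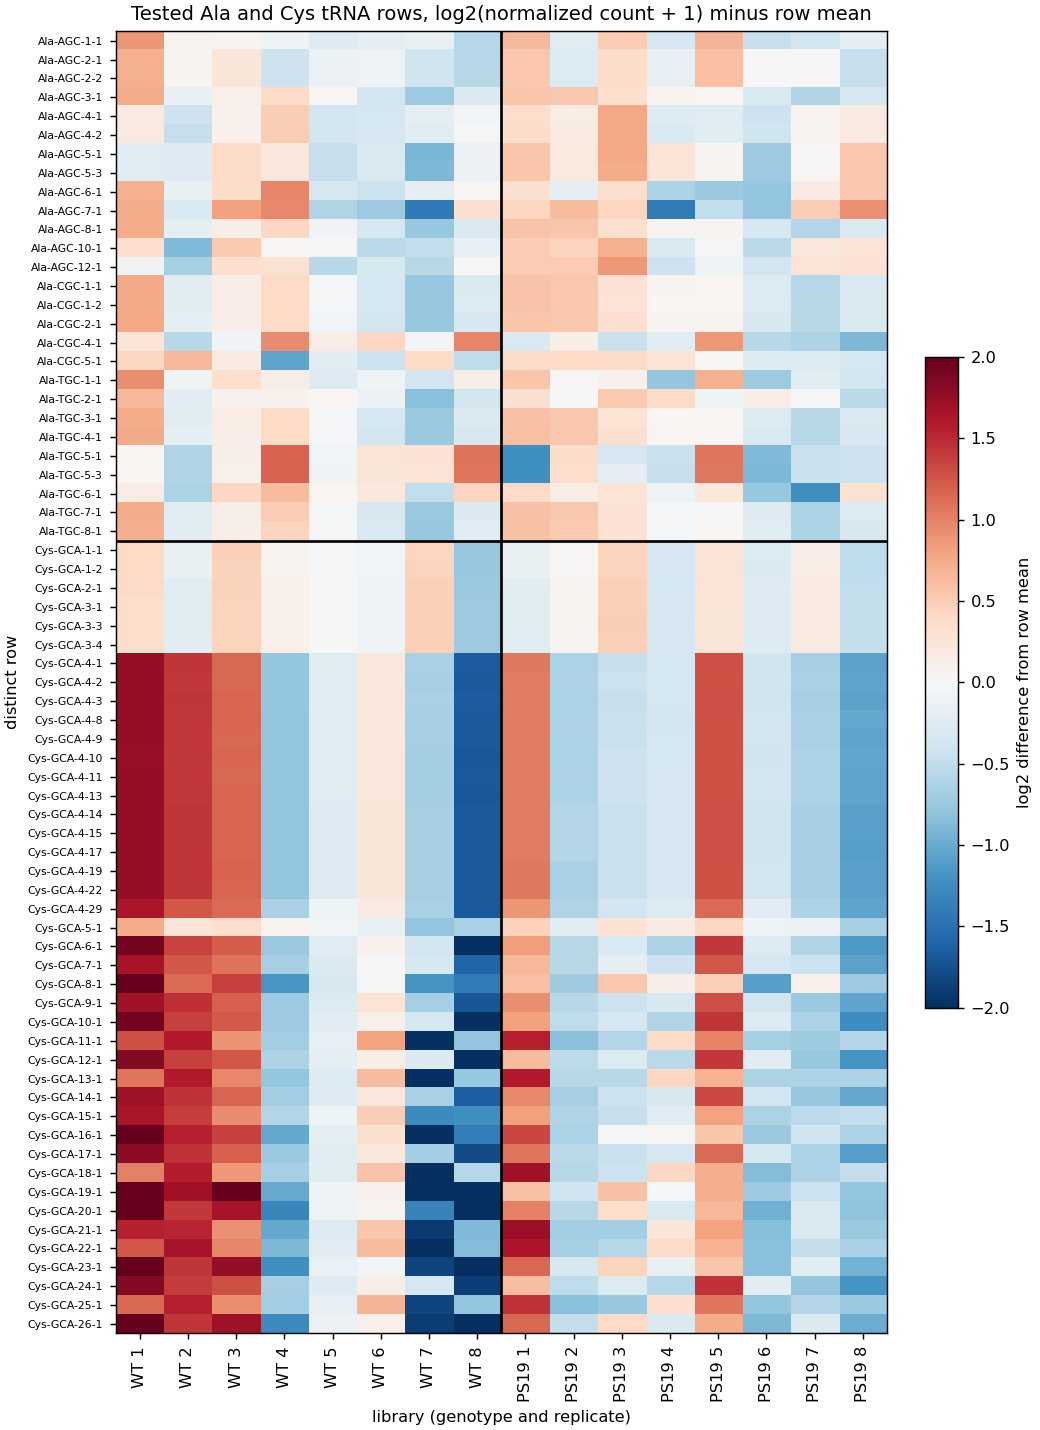
Log2(normalized count + 1) minus the mean of the row, for the 69 tested alanine (upper) and cysteine (lower) distinct rows in each WT (left) and PS19 (right) library, on a colour scale that saturates at 2 in either direction. Most cysteine rows are high in WT replicates 1, 2 and 3 and PS19 replicates 1 and 5 and low in WT replicate 8, while the 6 rows of Cys-GCA-1 to Cys-GCA-3 vary little.

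By median correlation, cysteine rows moved together most, alanine rows less, and alanine with cysteine rows least. With 1 row per near-identical set, Pearson's r of the log2 values over the 16 libraries had a median of 0.861 over 55 pairs of cysteine rows (range 0.0889 to 0.987), of 0.389 over 105 pairs of alanine rows (range −0.441 to 0.899) and of 0.206 over 165 pairs of 1 alanine and 1 cysteine row (range −0.339 to 0.876). The lowest cysteine pair was tRNA-Cys-GCA-1-2 with tRNA-Cys-GCA-25-1, and the highest tRNA-Cys-GCA-4-29 with tRNA-Cys-GCA-7-1. Alanine rows did not all move as a family. The row tRNA-Ala-AGC-2-2 had r of 0.876 to tRNA-Cys-GCA-5-1 and of 0.864 to tRNA-Ala-AGC-1-1, but of 0.022 to tRNA-Ala-AGC-6-1. All pairs share the libraries and their size factors, and are given as a description.

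Part of the spread depended on the scaling of the libraries. The normalized totals over all rows, identical ones included, ranged from 13.1 M to 24.3 M. Scaled to the library total instead, the SD of the log2 Ala-TGC sum in PS19 mice was 0.08 in place of 0.31, and that of the Ala-CGC sum 0.12 in place of 0.35. In WT mice the same SDs were 0.34 in place of 0.42 for Ala-TGC and 0.18 in place of 0.38 for Ala-CGC. Scaled to the tRNA total, the WT SD was larger than with the size factors for Ala-TGC, at 0.62, and for Ala-AGC, at 0.52 in place of 0.38, and smaller for Ala-CGC, at 0.19 in place of 0.38, and for Cys-GCA, at 0.31 in place of 0.60. For the Cys-GCA sum the SD in PS19 mice was 0.41 under both scalings, and in WT 0.41 in place of 0.60. The genotype differences kept their sign under either scaling and under scaling to the tRNA total, with Ala-AGC at 0.13, 0.16 and 0.12 and Cys-GCA at −0.18, −0.16 and −0.20 for the size factors, the library total and the tRNA total.

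Values also moved with the replicate number in the labels, whose meaning was not given. A linear trend in this number passed an adjusted p under 0.05 in limma in 46 of the 69 rows, 10 for alanine and 36 for cysteine, all with lower values at higher numbers, compared to 1105 of the 6024 features (18.3%). Near-identical rows repeat one another in this count, and with each set counted once it was 2 of 15 alanine and 10 of 11 cysteine sets. With the number in the model as a linear term, 0 of the 69 rows had an unadjusted or adjusted p under 0.05 for genotype in limma. Its part in the results above was not tested further.

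Features outside these families that followed the anticodon sums most closely were, for Ala-AGC and Ala-TGC, the 2 circRNAs named above, with r of 0.927 and 0.927 to Ala-AGC and of 0.945 and 0.948 to Ala-TGC. The third for each was mmu_circ_0008046 (r = 0.911) and mmu_circ_0006140 (r = 0.911). For Ala-CGC they were mmu-miR-193b-5p (r = 0.876), mmu-miR-7068-3p (r = 0.831) and tRNA-Arg-CCT-4-1 (r = 0.823), and for Cys-GCA mmu-mir-501 (r = 0.852), mmu-mir-99b (r = 0.823) and tRNA-Thr-TGT-2-1 (r = 0.820), each over the 16 libraries. They were picked as the highest of all features and are a description. The values for the 2 circRNAs largely restate their match to the shared alanine set, which is part of both sums.

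Among other amino acids, in the same fit, 14 of 280 distinct tRNA rows had an unadjusted p under 0.05, 13 higher and 1 lower in PS19 mice, which is 5.0% beside 4.0% of all features. They were 9 of 23 leucine rows, 3 of 5 histidine rows and 1 of 11 tyrosine rows, all higher, and 1 of 28 lysine rows, which was lower. Near-identical rows repeat one another here too, and the 14 rows belonged to 8 of 135 sets, the leucine rows to 5 and the histidine rows to 1. No tRNA row of any amino acid passed after adjustment.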

How the data were processed

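Small RNA was measured in prefrontal cortex of 8 PS19 and 8 WT mice, grouped by the genotype in the labels and numbered by the replicate in the title. Per the study's methods and the submitters' processing notes, the authors aligned single-end reads to mm10 with STAR 2.5.3a inside COMPSRA and divided the counts by DESeq2 1.42.1 size factors. The deposited values are this normalized signal. Divided by the smallest value above 0 of its library, every value was within 0.001 of a whole number, so whole reads were recovered by division. For WT replicates 4 and 6 the size factor was near 1, so low values lie near whole numbers there before division too. Over all values of all libraries the largest deviation from a whole number was 3.49e-09 reads. The fold changes and p-values of the authors' own comparison, deposited beside the signal, were not used.

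Members, lists and named rows were chosen with earlier results of these data known. Rows with equal values were counted once. Values were taken as log2(value + 1) and features with a mean of at least 5 were fitted with limma 3.58.1 (lmFit, eBayes with trend) in R 4.3.3 with genotype as the only term. This scale understates changes of low rows. Two-sided p-values were adjusted over all 6024 tested features by Benjamini-Hochberg. For sums, ratios and shares the test was a two-sided exact permutation test with all 12870 assignments of libraries, and intervals came from inverting that test (Python 3.11.15 with scipy 1.17.1). The smallest p this allows is 0.00016. The samples are separate mice.

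Rows named were, for each anticodon, the 3 with the highest mean and the lowest tested row, and the 3 smallest p-values in each direction. Other rows were named after their values were seen. Alternatives were edgeR 4.0.16 and DESeq2 1.42.0 on recovered reads, other scalings, pseudocounts of 0.5 and 5, no filter, a mean of at least 20, array weights, the replicate number and the code letter as terms, other ways of counting rows, and leaving out each library. The replicate numbers were not treated as pairs in the main tests, and the fit with the number as a block was an alternative. The limma step was tested on simulated counts. Gene positions came from RefSeq. Sequences of these tRNAs were not used here.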

Additional observations from a re-analysis of the deposited data

Results flagged for a closer look

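Among 58 group values of 8 libraries each that were examined with Dixon's test, 2 held a library that stood apart from the rest of its group, where chance gives about 1 in 20, or 2.9. The first was the summed normalized count of alanine rows in WT mice, where replicate 1 had 8579 and the next library, replicate 3, had 6256. Without WT replicate 1 the log2 differences of the alanine sums by anticodon stayed above 0. The second was tRNA-Ala-CGC-4-1 in PS19 mice, where replicate 5 had 37.4 and the next library, replicate 2, had 21.7. Without PS19 replicate 5 its log2 difference of −0.52 was −0.68.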

How the results depend on the processing

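No row passed after adjustment under any of the 30 alternatives. The number with an unadjusted p under 0.05 was 0 in the main fit, 1 with array weights, and 0 to 3 without 1 library (3 without PS19 replicate 5, 2 without PS19 replicate 6, 3 without WT replicate 2). The share of all features called was not counted with array weights or without 1 library, so these counts have no rate beside them. Same-numbered PS19 and WT libraries deviated together with r of 0.0446 to 0.456, over 0.1 in 6 of 8 pairs, and 2 of 8 PS19 libraries correlated best with their own number. The labels do not say that a number marks a shared origin, and not every pair exceeded 0.1, so the fit without the block was kept. With the replicate block the number was 0, and the block, by sign flips of 8 pairs for the sums, changed no call. The cause of these changes was not tested. With the mean of log2 over distinct rows in place of their sum, Ala-CGC reversed to −0.021 and Ala-TGC to −0.11. With the geometric mean of the alanine rows, as a percentage of the tRNA signal, in place of their summed share, the difference was -5.74e-05 percentage points. This mean is on the scale of a single row, so only its sign can be set against the summed share. Leaving out each library gave log2 differences of 0.06 to 0.23 for Ala-AGC, 0.02 to 0.15 for Ala-CGC, −0.0040 (without WT replicate 7) to 0.20 for Ala-TGC, −0.34 to −0.06 for Cys-GCA and −0.38 to −0.21 for the cysteine to alanine ratio, and −0.0017 to 0.0095 percentage points for the alanine share, which was below 0 without PS19 replicate 1, WT replicate 2 or WT replicate 7. Leaving out PS19 and WT replicate 7 together, chosen after seeing the data, gave 0.11, 0.15, 0.05 and −0.18 for the same 4 sums. Without 1 library, medians ran from −0.01 to 0.20 for alanine and −0.54 to −0.06 for cysteine rows.

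With the code letter as a term the alanine median was −0.05 and 15 of the 69 rows reversed, 10 for alanine and 5 for cysteine, among them tRNA-Ala-AGC-3-1 (−0.092), tRNA-Ala-AGC-7-1 (−0.30, and −0.056 with array weights), tRNA-Ala-AGC-8-1 (−0.074), tRNA-Ala-CGC-1-1 (−0.049), tRNA-Ala-CGC-1-2 (−0.050), tRNA-Ala-TGC-7-1 (−0.12), tRNA-Ala-TGC-8-1 (−0.094), tRNA-Cys-GCA-3-3 (0.025) and tRNA-Cys-GCA-5-1 (−0.13). With array weights 2 rows reversed. Leaving out 1 library reversed 24 of the 69 rows, 12 of each family, with ranges that included −0.033 to 0.18 for tRNA-Ala-AGC-3-1, −0.14 to 0.26 for tRNA-Ala-AGC-7-1, −0.014 to 0.20 for tRNA-Ala-AGC-8-1, −0.014 to 0.20 for tRNA-Ala-CGC-1-1, −0.017 to 0.20 for tRNA-Ala-CGC-1-2, −0.00083 to 0.25 for tRNA-Ala-CGC-5-1, −0.043 to 0.17 for tRNA-Ala-TGC-7-1, −0.051 to 0.16 for tRNA-Ala-TGC-8-1, −0.54 to 0.28 for tRNA-Cys-GCA-19-1, −0.55 to 0.16 for tRNA-Cys-GCA-20-1, −0.39 to 0.14 for tRNA-Cys-GCA-8-1 and −0.05 to 0.17 for tRNA-Cys-GCA-5-1. Rows under about 20 reads in a library have wide counting error, and the 8 untested rows were too low to compare.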
